A study of Sus scrofa with 4 samples.

Results

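Of the 321 miRNAs annotated in the pig hippocampus libraries analysed here, 8 belong to families grouped here under iron handling. These are both arms of miR-148a and miR-148b, and miR-152, miR-149, miR-320 and miR-31. They were chosen by name, as every annotated row with one of these numbers, and by family in a second table of conserved sequences, where mir-148 (which holds miR-152), mir-149, mir-320 and mir-31 take 60 of 2791 rows. All 8 reached 10 CPM (the read count relative to the scaled library total) in at least 1 library, as did 251 of the 321.

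The libraries came from 8 purebred newborn Rongchang littermates, a Chinese pig breed, with the genotype given as wide type, 4 females and 4 males, of which 4 were given iron and 4 were controls. On days 3 and 4 of life the iron piglets were injected in the muscle with 200 mg of iron dextran, iron bound to a sugar polymer, to cause oxidative stress. No injection is described for the control piglets. Tissue was pooled by treatment and region before extraction, which gave 1 library each for iron dorsal, control dorsal, iron ventral and control ventral hippocampus. Neither the age at sampling nor the number of piglets per pool is stated in the labels. No combination had a replicate, so the ratios below compare libraries, and their 95% intervals cover counting error only. In pooled tissue, a change in the number of cells of a type and a change in miRNA per cell cannot be told apart.

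Cells take up iron through the transferrin receptor, store it in ferritin and export it through ferroportin. A miRNA binds messenger RNAs mainly through its seed, bases 2 to 8, and lowers the protein they give. In human cells miR-148a, miR-152 and miR-320 have been reported to repress the transferrin receptor. In human cells miR-31 is known to repress factor inhibiting HIF, an iron-dependent oxygenase. miR-149 is included by name, and no target is stated for it here.

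The sequences below are shown because the seed decides which of these miRNAs can share targets. They are the rows of the deposited conserved table that name the pig among their species, written 5′ to 3′ with the seed in capitals.
miR-148a-3p: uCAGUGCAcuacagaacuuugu
miR-148b-3p: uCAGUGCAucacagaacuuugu
miR-152: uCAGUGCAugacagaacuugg
miR-148a-5p: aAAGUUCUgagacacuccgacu
miR-148b-5p: gAAGUUCUguuauacacucaggc
miR-149: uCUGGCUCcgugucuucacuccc
miR-31: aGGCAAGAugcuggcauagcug

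miR-148a-3p, miR-148b-3p and miR-152 carry the same seed, CAGUGCA, and no other of the 314 conserved rows that name the pig has it. Counted from the 5′ end, miR-148b-3p differs from miR-148a-3p at 2 of 22 bases, C9U and U10C. miR-152 differs from miR-148a-3p at C9U, U10G and U20G over the 21 bases they share. All of these differences lie outside the seed. The 5p arms of miR-148a and miR-148b share a seed with each other, AAGUUCU. miR-149, miR-320 and miR-31 have seeds of their own, and that of miR-320 is AAAGCUG. The RefSeq gene table of pig assembly Sscrofa 11.1, another build than the files', places the miR-148b gene inside COPZ1 and the miR-152 gene inside COPZ2, which encode paralogous subunits of the COPI vesicle coat. It places the miR-149 gene inside GPC1, a glypican, and shows the miR-320 gene overlapping POLR3D, an RNA polymerase III subunit. No other listed gene overlaps the genes of miR-148a or miR-31.

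The libraries held 11396809 to 13839556 annotated miRNA reads once repeated rows were merged. The 4 neuronal markers summed to 228107 to 256473 CPM, most of it miR-9. Of the others, miR-124a had 33451 to 41655 CPM over the libraries, miR-128 11446 to 17261 CPM and miR-138 1594 to 1984 CPM. The 3 erythroid markers summed to 861 CPM in iron dorsal and 837 CPM in control dorsal. In ventral hippocampus they summed to 1019 CPM in iron and 1075 CPM in control. The liver marker miR-122 stood at 4.55 to 7.80 CPM. None of the 3 epithelial markers is an annotated row in the table, so epithelial signal is not measured by that set. Together the 8 miRNAs made up 1.60% of annotated reads in iron dorsal (95% interval 1.59 to 1.60) and 1.71% in control dorsal (1.70 to 1.72), and 1.51% in iron ventral (1.499 to 1.51) and 1.44% in control ventral (1.43 to 1.44).

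The levels of the 8 miRNAs fell into tiers that did not overlap. The 3p arms of the miR-148 and miR-152 seed family lay between 2730.4 and 7954 CPM, and miR-149 and miR-320 between 481 and 625 CPM. miR-148a-5p lay between 101 and 151 CPM, and miR-148b-5p and miR-31 between 35.6 and 46.5 CPM.

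**Figure D1:**
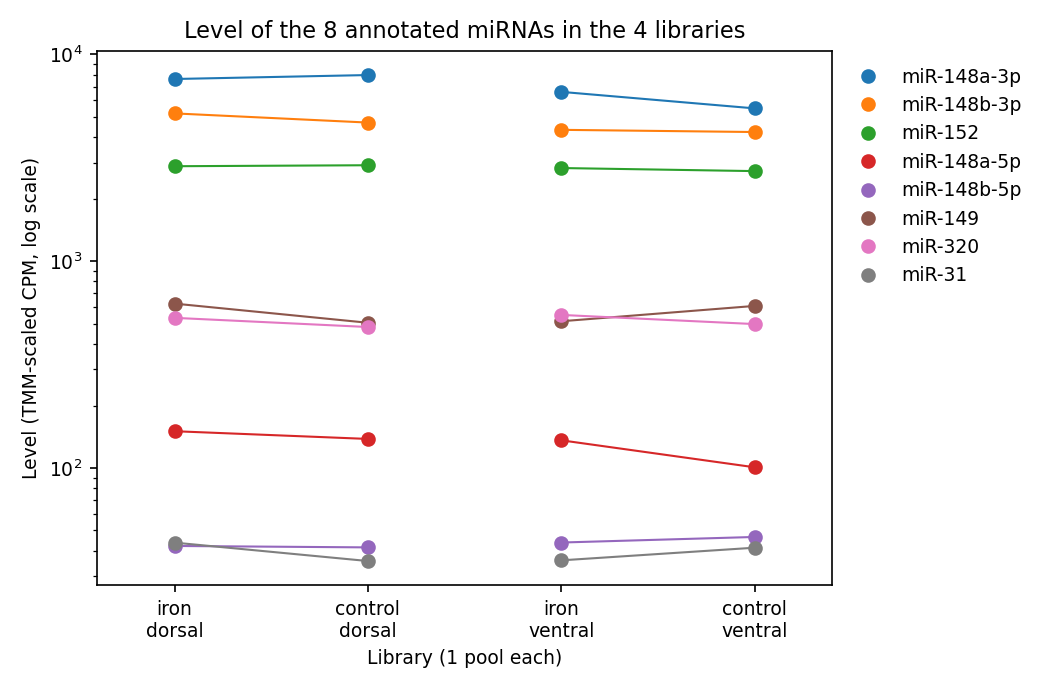
CPM (vertical axis, log scale) of the 8 annotated miRNAs in the 4 pooled libraries, 1 point per miRNA and library, with lines joining iron and control of the same region. The order of the seed family is the same in every library, while miR-149 and miR-320 change places between libraries.

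miR-148a-3p, which is known to act on the low-density lipoprotein receptor in human and mouse liver, was the most abundant. It had 7611 CPM in iron dorsal, 7954 CPM in control dorsal, 6596 CPM in iron ventral and 5489 CPM in control ventral, and ranked between 28 and 31 of 321 miRNAs. The control ventral library was the lowest and both dorsal libraries were above both ventral ones. Iron was higher than control in ventral hippocampus by a ratio of 1.20 (95% counting interval 1.19 to 1.21) and lower in dorsal hippocampus at a ratio of 0.957 (0.948 to 0.966). Dorsal was higher than ventral in iron piglets by 1.15 (1.14 to 1.17) and in control piglets by 1.45 (1.44 to 1.46). The control ratio was above that of 95.2% of the 251 measured miRNAs.

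miR-148a-5p, the lesser arm of the same hairpin, had 151 CPM in iron dorsal, 138 CPM in control dorsal, 136 CPM in iron ventral and 101 CPM in control ventral. It too was lowest in control ventral. Iron over control in ventral hippocampus was 1.35 (1.26 to 1.45), above 93.6% of measured miRNAs, and dorsal over ventral in control piglets was 1.37 (1.28 to 1.47), above 94.0%. In dorsal hippocampus iron over control was 1.09 (1.02 to 1.17), the opposite direction to the 3p arm, but with total counts in place of TMM, the scaling used here, its log2 ratio was -0.002. The ventral iron comparison and the control region comparison share the control ventral library, so these values are not independent. That library also had the highest level of the choroid plexus marker miR-204, at 253 CPM against 164 to 199 CPM in the others, while miR-211 is not an annotated row. It was highest too in miR-34c, listed here for ciliated cells, at 9409 CPM against 4194 to 7028 CPM, with miR-449a not annotated. Which cells of this tissue the miR-34c reads come from was not tested. The oligodendrocyte markers, of which all 3 are annotated, summed to 8812 CPM in iron dorsal, 11503 CPM in control dorsal, 13906 CPM in iron ventral and 10264 CPM in control ventral. Like miR-148a-3p, they were below control in iron dorsal and above control in iron ventral. The 4 neuronal markers were divided. miR-128 did the same, with 12740 CPM in iron dorsal, 17261 CPM in control dorsal, 14615 CPM in iron ventral and 11446 CPM in control ventral, and so did miR-124a. miR-9 did the reverse, with 180323 CPM in iron dorsal, 176620 CPM in control dorsal, 184262 CPM in iron ventral and 202670 CPM in control ventral. miR-138 was below control in both regions. The part of these markers in the miR-148a values was not tested.

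miR-148b-3p had 5190.4 CPM in iron dorsal, 4687 CPM in control dorsal, 4323 CPM in iron ventral and 4219 CPM in control ventral. Its highest level was in iron dorsal, where miR-148a-3p was below control. Iron over control was 1.11 (1.09 to 1.12) in dorsal and 1.02 (1.01 to 1.04) in ventral hippocampus. With total counts its log2 ratio was 0.02 in dorsal and -0.03 in ventral hippocampus. Dorsal over ventral was 1.20 (1.19 to 1.22) in iron piglets and 1.11 (1.10 to 1.12) in control piglets. miR-148b-5p stayed between 41.4 and 46.5 CPM, and all 4 of its ratios had intervals that included 1.

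miR-152 was nearly level, at 2883 CPM in iron dorsal, 2914 CPM in control dorsal, 2825 CPM in iron ventral and 2730.4 CPM in control ventral. Its highest level was 1.07 times its lowest, and 1.99% of the 251 measured miRNAs had a smaller spread over the 4 libraries, where the median was 1.33. Iron over control was 0.989 (0.974 to 1.004) in dorsal and 1.03 (1.02 to 1.05) in ventral hippocampus. Total counts gave log2 ratios of -0.14 in dorsal and -0.01 in ventral hippocampus. The same spread was 1.45 for miR-148a-3p, above 70.1% of measured miRNAs, and 1.23 for miR-148b-3p, above 27.5%.

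Because these 3 share a seed, their sum and make-up were also compared. The sum was 15685 CPM in iron dorsal, 15556 CPM in control dorsal, 13744 CPM in iron ventral and 12438 CPM in control ventral. Iron over control of the sum was 1.01 (1.002 to 1.015) in dorsal and 1.11 (1.10 to 1.11) in ventral hippocampus. As a share of all annotated reads, which is the total count scaling, the sum was 1.47% in iron dorsal and 1.59% in control dorsal, so that the dorsal direction turned, and 1.38% in iron ventral and 1.30% in control ventral. miR-148a-3p supplied 48.5% of the sum in iron dorsal (95% interval 48.3 to 48.8) and 51.1% in control dorsal (50.9 to 51.4), and 48.0% in iron ventral (47.8 to 48.2) and 44.1% in control ventral (43.9 to 44.4). Its share was thus below control in iron dorsal and above control in iron ventral, and miR-148b-3p took 33.1% and 30.1% in iron and control dorsal against 31.5% and 33.9% in iron and control ventral. miR-152 supplied 18.4% in iron dorsal and 18.7% in control dorsal, and 20.6% in iron ventral and 22.0% in control ventral.

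**Figure D2:**
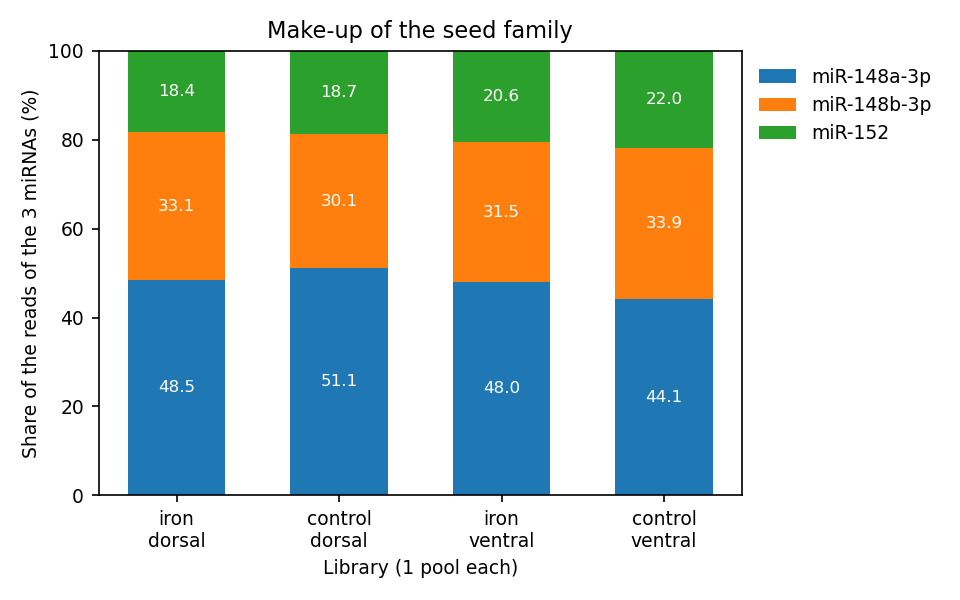
Share of the reads of miR-148a-3p, miR-148b-3p and miR-152 (percent of their sum, vertical axis, from 0) held by each of them in the 4 pooled libraries. miR-148a-3p holds 51.1% in control dorsal and 44.1% in control ventral, with both iron libraries between these values.

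The 5p arm was minor in both hairpins. miR-148a-5p made up 1.94% of the reads of its 2 arms in iron dorsal (95% interval 1.85 to 2.04) and 1.71% in control dorsal (1.63 to 1.79), and 2.03% in iron ventral (1.93 to 2.12) and 1.81% in control ventral (1.72 to 1.90). The share was higher in iron than in control in both regions. For miR-148b-5p it was 0.804% in iron dorsal (0.732 to 0.882) and 0.876% in control dorsal (0.802 to 0.955), and 1.001% in iron ventral (0.919 to 1.09) and 1.09% in control ventral (1.01 to 1.18), with intervals that overlap between iron and control in both regions. Among 44 annotated pairs of measured arms the lesser arm had a median share of 11.8%, and its share was higher in iron than in control in both regions for 15 pairs and lower in both for 12.

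miR-149 had 625 CPM in iron dorsal, 505 CPM in control dorsal, 513 CPM in iron ventral and 609 CPM in control ventral. Iron dorsal and control ventral were high and the other two low. Iron over control was 1.24 (1.20 to 1.28) in dorsal and 0.843 (0.816 to 0.871) in ventral hippocampus. Dorsal over ventral was 1.22 (1.18 to 1.26) in iron piglets and 0.829 (0.803 to 0.857) in control piglets.

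miR-31 followed the same order at a level of 35.6 to 43.7 CPM, from 439 to 598 reads per library. It had 43.7 CPM in iron dorsal, 35.6 CPM in control dorsal, 35.8 CPM in iron ventral and 41.3 CPM in control ventral. Iron over control was 1.23 (1.08 to 1.40) in dorsal and 0.869 (0.766 to 0.984) in ventral hippocampus. The regions' iron differences thus had opposite signs for miR-149, miR-31 and miR-148a-3p, with both intervals off 1, which is 3 of 8 against 30.7% of the 251 measured miRNAs. Whether the iron difference itself differed between the regions was not tested, as no residual degree of freedom is left for it.

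miR-320, known in mouse cells for a hairpin precursor made without Drosha, had 533 CPM in iron dorsal, 481 CPM in control dorsal, 551 CPM in iron ventral and 497 CPM in control ventral. With TMM both iron libraries were above both control libraries, while with total counts iron dorsal was below control ventral. Iron over control was 1.11 (1.07 to 1.15) in dorsal and 1.11 (1.07 to 1.14) in ventral hippocampus. Total counts gave log2 ratios of 0.02 in dorsal and 0.08 in ventral hippocampus. Dorsal over ventral was 0.968 (0.934 to 1.003) in iron piglets and 0.968 (0.935 to 1.002) in control piglets, both with intervals that include 1.

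**Figure D3:**
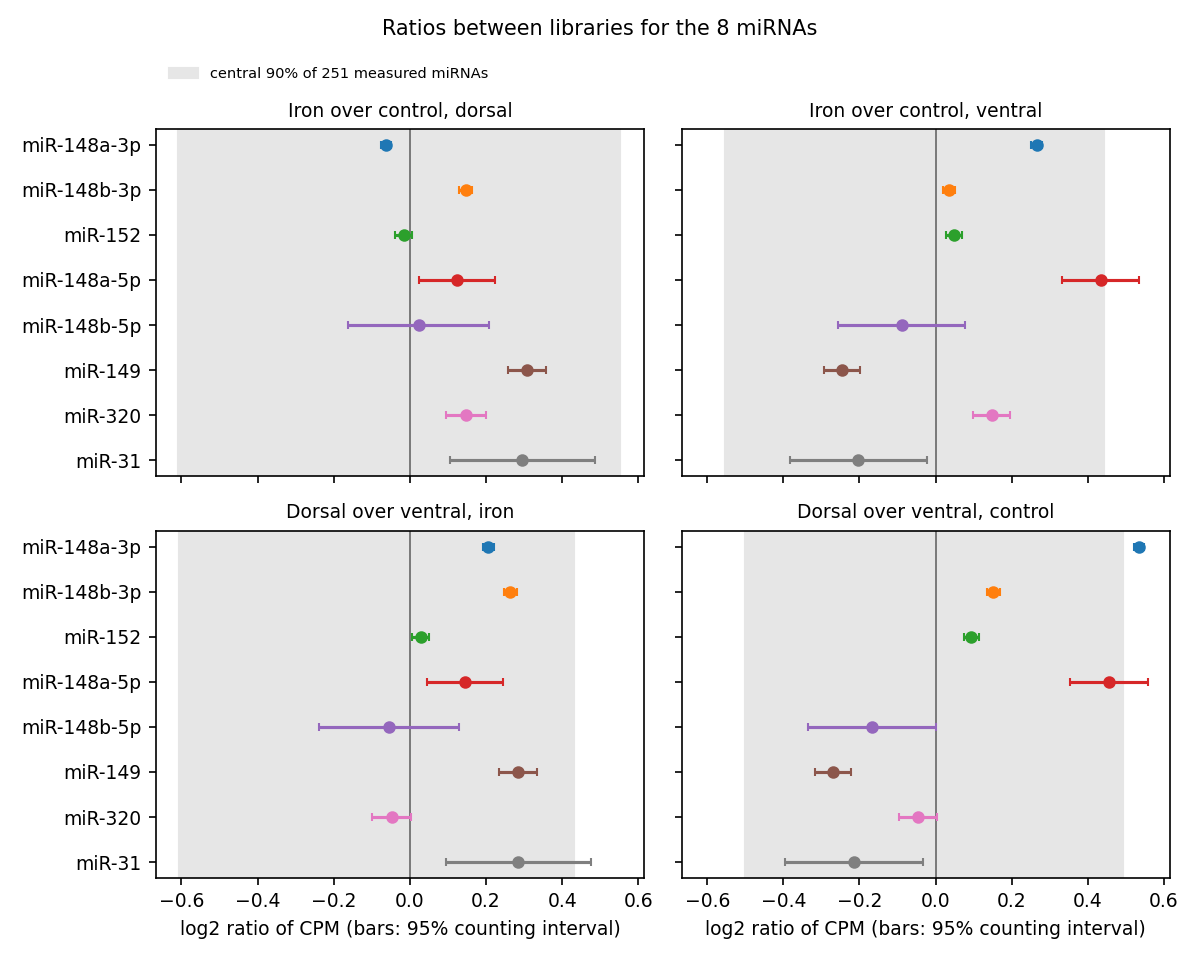
log2 ratio of CPM between libraries for the 8 miRNAs (horizontal axis) in 4 comparisons, with bars for the 95% counting interval and a grey band for the central 90% of 251 measured miRNAs. Of the 32 points, 1 lies outside its band, that of miR-148a-3p for dorsal over ventral in control piglets, at 0.54.

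None of the 8 miRNAs differed by 1.5-fold or more in any of the 4 comparisons. A 2-fold difference was met by 0.797% of the 251 measured miRNAs for iron over control in dorsal hippocampus and 1.99% in ventral hippocampus, and by 0.797% and 1.99% for dorsal over ventral in iron and in control piglets. A 1.5-fold difference was met by 9.56%, 5.58%, 8.37% and 6.77% in the same order. The counting interval excluded 1 for 6 of the 8 in dorsal and 7 of the 8 in ventral hippocampus for iron over control, against 77.7% and 77.3% of all measured miRNAs. For dorsal over ventral it did so for 6 of 8 in iron piglets and 6 of 8 in control piglets, against 77.7% and 75.3%. These shares are near the background. By direction, 5 of the 8 were higher and 1 lower for iron over control in dorsal hippocampus, against 37.8% and 39.8% of all measured miRNAs, and 5 were higher and 2 lower in ventral hippocampus, against 43% and 34.3%. For dorsal over ventral, 6 were higher and 0 lower in iron piglets, against 40.2% and 37.5%, and 4 were higher and 2 lower in control piglets, against 39% and 36.3%. The median log2 ratio of the 8 was 0.14 for iron over control in dorsal and 0.04 in ventral hippocampus, beside -0.02 and 0.002 for all measured miRNAs. For dorsal over ventral it was 0.18 in iron and 0.02 in control piglets, beside 0.01 and -0.004. With total counts every log2 ratio moved by -0.13 in the dorsal iron comparison and by -0.10 for dorsal over ventral in iron piglets.

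Across all 4 libraries, iron against control was tested with edgeR's quasi-likelihood test with region as a term, over all 251 measured miRNAs. It leaves 1 residual degree of freedom and its p-values describe these libraries, not piglets, since each treatment has 1 pool of tissue per region and both pools come from the same group of piglets. None of the 251 (0%) passed an adjusted p of 0.05, and 11 had an unadjusted p under 0.05. With limma-trend there were 0 calls, and with the DESeq2 Wald test 1, miR-96-5p, which is none of the 8. The log2 differences of the 8 ran from -0.03 for miR-148b-5p to 0.28 for miR-148a-5p, with adjusted p between 0.929 and 0.992 in edgeR. For dorsal against ventral, with treatment as a term, edgeR again called 0 of 251 (0%), with 8 at an unadjusted p under 0.05, and the other 2 tools made 0 calls. There miR-148a-3p had the largest log2 difference of the 8, at 0.37, with 2 of 2 treatments higher in dorsal and an adjusted p of 0.996 in edgeR. A p that misses the threshold does not show that the libraries are alike.

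In the conserved table the same miRNAs were compared as family sums. For mir-148, which sums 28 rows, iron over control was 1.02 (1.01 to 1.02) in dorsal and 1.12 (1.12 to 1.13) in ventral hippocampus. For mir-149 it was 1.18 (1.13 to 1.22) in dorsal and 0.854 (0.824 to 0.885) in ventral hippocampus. For mir-320 it was 1.09 (1.05 to 1.13) in dorsal and 1.12 (1.08 to 1.16) in ventral hippocampus, and for mir-31 1.26 (1.11 to 1.43) in dorsal and 0.840 (0.743 to 0.949) in ventral hippocampus. With total counts the dorsal direction turned for mir-148, at 0.930, and for mir-320, at 0.993, while the other dorsal and all 4 ventral ratios kept theirs. For dorsal over ventral the ratio of mir-148 was 1.14 (1.13 to 1.15) in iron piglets and 1.26 (1.25 to 1.27) in control piglets, and that of mir-31 was 1.29 (1.13 to 1.46) in iron piglets and 0.859 (0.761 to 0.970) in control piglets. None of the 4 families reached 1.5-fold, a difference met by 12.2% of 188 families for iron over control in dorsal and 7.98% in ventral hippocampus, and by 9.57% and 8.51% for dorsal over ventral in iron and in control piglets. The mir-148 sum may not hold all reads of miR-152. A row named for cattle miR-2957 is the exact reverse complement of the pig miR-152 sequence and lists the same reads. These are 7502 in iron dorsal and 9518 in control dorsal, and 8927 in iron ventral and 9879 in control ventral. The table's counting may thus not have kept the strand.

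The conserved table also shows arms that have no annotated row. miR-152-5p had 21.0 CPM in iron dorsal, 16.7 CPM in control dorsal, 18.2 CPM in iron ventral and 19.3 CPM in control ventral, from 204 to 276 reads. Iron over control was 1.26 (1.04 to 1.53) in dorsal and 0.940 (0.783 to 1.13) in ventral hippocampus. miR-31-3p had 52 reads in iron dorsal and 49 in control dorsal, and 27 in iron ventral and 75 in control ventral. Its iron over control ratio was 0.428 (0.265 to 0.673) in ventral hippocampus and 1.24 (0.822 to 1.87) in dorsal hippocampus, and its levels of 2.25 to 5.25 CPM lie under the 10 CPM minimum. miR-149-3p had 2 to 8 reads per library, and miR-320-5p had 1 read in iron ventral and 0 in the other libraries, where a count of 0 allows up to 3 reads.

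The same table lists pairs of sequences of which one lacks the last base at the 3′ end of the other. The values show reads shared between such rows: 2 of 372 pairs list the same reads in all 4 libraries, and in 136 the rows differ by whole reads although the values themselves may be fractional. The shares below therefore describe the assignment of reads to rows and do not measure the length of the mature ends. For miR-148a-3p the 21-base row held 23.1% of the reads of the 21-base and 22-base rows in iron dorsal and 17.9% in control dorsal, and 19.7% in iron ventral and 20.9% in control ventral. For miR-148b-3p the same share was 33.5% in iron dorsal and 24.8% in control dorsal, and 29.5% in iron ventral and 31.4% in control ventral. Both were highest in iron dorsal and lowest in control dorsal. For miR-320 the 22-base row held 34.7% of the reads of the 22-base and 23-base rows in iron dorsal and 30.3% in control dorsal, and 31.5% in iron ventral and 33.7% in control ventral. For miR-149 the values were 31.6%, 28.1%, 29.6% and 28.8% in the same order of libraries. miR-152 at 63.0% to 64.6%, and the 22-base against the 23-base row of miR-148b-3p at 56.5% to 57.0%, were nearly level.

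**Figure D4:**
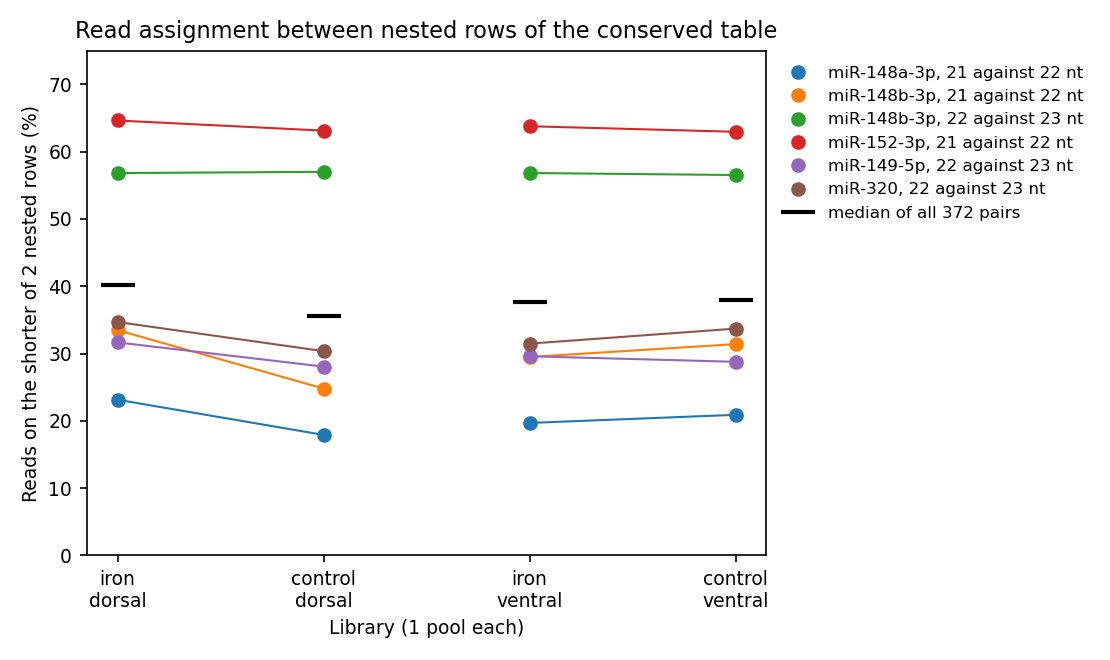
Percent of the reads of 2 nested rows of the conserved table that the authors assigned to the shorter row (vertical axis), for 6 pairs of the miR-148, miR-149 and miR-320 families in the 4 pooled libraries, with a black dash for the median of all 372 pairs. Iron dorsal is highest in 5 of the 6 pairs, and the median of all pairs is highest there too.

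The shorter row's share was highest in iron dorsal for 5 of these 6 pairs and for 215 of the 366 other pairs with at least 500 reads in every library (58.7%). It was lowest in control dorsal for 4 of 6 and for 209 of 366 (57.1%). The median over all 372 pairs was 40.2% in iron dorsal and 35.6% in control dorsal, and 37.7% in iron ventral and 38.0% in control ventral. The pairs share reads and libraries, and the difference was not tested.

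Another 17 annotated miRNAs belong to a wider iron list, of which 13 were measured. For iron over control, 2 of the 13 reached 1.5-fold in dorsal hippocampus, both higher, against 9.56% of all measured miRNAs, and 1 of the 13 in ventral hippocampus, lower, against 5.58%. Their median log2 ratio was 0.06 in dorsal and -0.04 in ventral hippocampus. miR-194a, transcribed with miR-192 and abundant in liver, was the highest in both, at 70.6 CPM in iron dorsal against 42.1 CPM in control dorsal, a ratio of 1.68 (1.4995 to 1.88), and at 1.43 (1.29 to 1.59) in ventral hippocampus. The other one past 1.5-fold in dorsal hippocampus was miR-758, of the imprinted DLK1-DIO3 region, at 1.55 (1.52 to 1.58). The lowest was miR-130a in dorsal hippocampus, at 0.672 (0.638 to 0.707), and miR-182, of a cluster known from sensory epithelia, in ventral hippocampus, at 0.438 (0.410 to 0.469). For dorsal over ventral, 1 of 13 reached 1.5-fold in iron piglets, against 8.37% of all measured miRNAs, and 1 of 13 in control piglets, against 6.77%, both lower. In iron piglets the lowest was miR-210, a hypoxia-induced miRNA that represses the iron-sulfur scaffold ISCU in human cells, at 0.661 (0.608 to 0.717), and the highest was miR-758 at 1.46 (1.43 to 1.48). In control piglets the lowest was miR-182 at 0.522 (0.490 to 0.556) and the highest let-7d-5p at 1.21 (1.18 to 1.25).

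For each of the 6 miRNAs at 100 CPM or more in every library, the nearest of 156 other such miRNAs was found by the distance between log2 CPM values centred over the 4 libraries. With 4 libraries and 156 candidates a near neighbour is easily found, so this is a description only. miR-24-3p was nearest to miR-320, at a distance of 0.02 where the median over the candidates was 0.31. It had 13639 CPM in iron dorsal, 12319 CPM in control dorsal, 14024 CPM in iron ventral and 12505 CPM in control ventral. miR-221-3p was nearest to miR-148a-3p at 0.14, and miR-222 to miR-148b-3p at 0.09. miR-432-5p was nearest to miR-152 at 0.05, miR-107 to miR-148a-5p at 0.09 and miR-30c-3p to miR-149 at 0.12.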

How the data were processed

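Small RNA was sequenced from 4 pooled hippocampus libraries on an Illumina instrument, per the labels. The submitters' processing notes name cutadapt 1.2.2 and the builds Sscrofa 10.2 and susScr 3 (aligner, quantifier and miRNA release: not given in the sources used here). Per the file headers, the authors deposited estimated counts per annotated miRNA and per conserved sequence, and RPM values. Columns of per-sample values not used number 12. Counts were rounded, and repeated annotated rows (shared precursors, reads equal to 0.1%) were merged (326 to 321). Reads of near-identical miRNAs such as miR-148a-3p and miR-148b-3p may have been split by the authors' counting, so single members are uncertain.

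Libraries were scaled with TMM (edgeR 4.0.16). Pairwise ratios carry exact conditional binomial (Clopper-Pearson) 95% intervals and shares exact binomial ones, for counting error only, and amplified reads are not independent molecules. A count of 3 reads, the limit a count of 0 allows, equals 0.217 to 0.263 CPM before TMM. The test over 4 libraries was edgeR's quasi-likelihood test with Benjamini-Hochberg adjustment over all 251 measured miRNAs, with DESeq2 1.42.0 and limma 3.58.1 as alternatives. Only the edgeR test and the counting interval of the ratios were run on simulated counts. For the edgeR test the simulated spread was estimated from these same 4 libraries. All members are named, and of the wider list the highest and lowest in each comparison. Members and lists were chosen with earlier results of these data known. Nested rows, and the total count scaling of family sums, were added after the data were seen.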

Additional observations from a re-analysis of the deposited data

Results flagged for a closer look

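In 3 of the 8 miRNAs every iron library moved one way against its control in dorsal hippocampus and the other way in ventral hippocampus, with 1 library per group. The dorsal minus ventral difference of the log2 ratios was 0.55 for miR-149, 0.50 for miR-31 and -0.33 for miR-148a-3p. These differences were not tested. The same split, with both counting intervals off 1, was seen in 77 of the 251 measured miRNAs (30.7%).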

How the results depend on the processing

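The adjusted p of the 8 miRNAs lay between 0.790 and 0.996 for iron and between 0.945 and 0.999 for region over all settings tried. The 32 ratios of the 8 kept their sign with DESeq2 size factors and without a filter, as did the 24 left with a minimum of 100 CPM, which leaves out miR-148b-5p and miR-31. With total counts 5 of 32 changed sign, 4 of them with an interval off 1: miR-148b-3p and miR-152 became -0.03 and -0.01 for iron over control in ventral hippocampus, miR-148a-5p became -0.002 in dorsal hippocampus, and miR-152 became -0.07 for dorsal over ventral in iron piglets. With the authors' RPM, which moved every dorsal iron log2 ratio by -0.11, 2 changed sign, and with rows not merged 1 did. The signs of miR-149, miR-320, miR-31 and miR-148a-3p held in all of these settings. For iron over control in dorsal hippocampus, total counts gave log2 ratios of 0.02 for miR-320 and 0.17 for miR-31, in place of 0.15 and 0.30. In the same comparison and scaling, miR-148b-3p went from 0.15 to 0.02 and miR-149 from 0.31 to 0.18. The opposite signs with both intervals off 1 were counted with TMM only.

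Counts over all miRNAs at 2-fold, of which none was among the 8, depended on the filter. In the dorsal iron comparison the count and its direction also depended on the scaling. For iron over control in ventral hippocampus 5 became 9 with no filter, 3 with a minimum of 100 CPM and 14 at 1.5-fold. In dorsal hippocampus 2 (2 higher, 0 lower) became 4 with total counts (1 higher, 3 lower), 6 with no filter, 0 with 100 CPM and 24 at 1.5-fold, and the authors' RPM gave 3 (1 higher, 2 lower). For dorsal over ventral in iron piglets 2 became 0 with 100 CPM and 21 at 1.5-fold; in control piglets 5 became 11 with no filter, 2 with 100 CPM and 17 at 1.5-fold. The edgeR calls for iron were 2 with total counts, DESeq2 size factors or rows not merged and 3 with no filter, and the DESeq2 Wald test gave 1; for region they were 3, 3 and 3, and 4 with no filter, in place of 0, and the cause was not tested. Without the region or treatment term both were 0. No paired analysis was possible because each group is 1 library, with no replicate numbers to pair; the fits already compare within region or within treatment through that term. Leaving out a library leaves no residual degree of freedom. Depth limits miR-148b-5p, miR-31 and the arms with no annotated row.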

Other observations

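Whether reads were counted by strand is not given in the labels for the conserved or the annotated table, so how many reads of the rows below come from the antisense strand is unknown. In the conserved table a row named for rat miR-31b is the reverse complement of part of miR-31 and lists 72 reads in iron dorsal and 46 in control dorsal, and 56.6 in iron ventral and 90.8 in control ventral. The human-named miR-31-5p row, on the sense strand, lists 59.2 reads in iron dorsal and 54.3 in control dorsal, and 56.6 in iron ventral and 72.1 in control ventral. The mir-31 family sum includes this antisense row, while the mir-148 sum leaves out the antisense partner of miR-152.

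The sense rows of miR-152 in the conserved table held 19912 reads in iron dorsal and 23268 in control dorsal, and 22615 in iron ventral and 25717 in control ventral. With the antisense row they held 27414, 32786, 31542 and 35596 reads, in that order of libraries, beside 30696, 35963, 34836 and 39568 reads of annotated miR-152. For miR-148a-3p, which has no antisense row, the conserved rows held 75769 reads in iron dorsal and 91915 in control dorsal, and 76115 in iron ventral and 74552 in control ventral, beside 81042, 98151, 81332 and 79547 annotated reads.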
